A study of Bos taurus with 8 samples.

Results

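Limb and dermal position genes, meaning transcription factor genes that help lay out limbs and skin in the embryo, were followed in methylated DNA from cultured cattle fibroblasts. The 10 genes listed were TBX2, TBX3, TBX4, TBX5, TBX15, TBX18, EN1, PITX1, TWIST1 and TWIST2. Their members were every window of the genome tables whose gene name was on this list, together with 2 windows on each side of each gene. The tables named 9 of the 10 genes in 106 windows of 3 kb, out of 902984 windows in all, and gave 36 flanking windows. No window carried the name EN1, so EN1 is not described.

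The DNA came from dermal fibroblast cultures of 4 Holstein (dairy) and 4 Angus (beef) females of the same age, grown from skin taken at the shoulder. All 8 cultures were un-treated and at passage 5, and each gave 1 library from 1 animal, called here Holstein 1 to 4 and Angus 1 to 4. MIRA-Seq captures sonicated DNA with proteins that bind methylated CpG sites and sequences the captured fragments. A window with more methylated CpG therefore yields more reads, given as CPM (read counts scaled to the total over all windows of that library).

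T-box genes encode transcription factors that share a DNA-binding domain. TBX4 with PITX1 is known for the hind limb and TBX5 for the forelimb and heart, whereas TBX15, TBX18, EN1, TWIST1 and TWIST2 are known for dermis and other mesenchyme. In the genome TBX2 lies next to TBX4 and TBX3 next to TBX5, an old duplication, and methylation at a promoter commonly goes with a silent gene, whereas methylation within a gene body can go with an active one. No RNA was analysed here, so whether any of these genes was expressed was not tested in this report. The study reported RNA-Seq of the same cultures. It listed TWIST2 and TBX3 as raised early after LPS, and TBX2 as higher in Holstein than in Angus at that time.

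Reads in windows ranged from 18691111 (Angus 4) to 35525554 (Holstein 4) per library. A count of 3 reads, taken as the smallest to be told from 0, corresponded to 0.0844 to 0.161 CPM, and this floor covers counting error only. Holstein 1 and Angus 3 stood apart: 20.0% and 26.1% of their reads lay on unplaced scaffolds, against 10.6 to 16.1% in the other 6 libraries, and their TMM normalization factors were the lowest (0.817 and 0.677 in the window fit). Holstein 1 had the lowest gene level in 5 of the 9 genes and Angus 3 in 3 of them, so results are also given without both. Among marker genes the median level of the first window was 0.1004 CPM for 7 fibroblast markers, 1.16 CPM for 4 keratinocyte markers, 0.550 CPM for 3 endothelial markers, 0.745 CPM for 3 leukocyte markers and 0.579 CPM for 4 melanocyte markers. These are levels of captured DNA, not of RNA, and they cannot by themselves identify the cells. In such bulk cultures a larger share of methylated cells and more methylation per cell cannot be told apart.

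Genes of the TBX2 and TBX4 pair gave the most captured DNA per window and TWIST1 gave the least. The mean over a gene's windows and the 8 libraries was 2.77 CPM for TBX2, 1.70 CPM for TBX4, 1.41 CPM for TWIST2 and 0.999 CPM for TBX5. TBX3 followed at 0.841 CPM, PITX1 at 0.778 CPM, TBX15 at 0.357 CPM, TBX18 at 0.312 CPM and TWIST1 at 0.151 CPM. Among 26051 named genes on placed chromosomes, whose median was 0.521 CPM, TBX2 stood at the 92.9th percentile, TBX4 at the 83.9th and TWIST2 at the 79.4th, while TBX15 stood at the 36.7th, TBX18 at the 31.5th and TWIST1 at the 9.13th.

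Neighbours in this order were compared within each library. TBX2 lay above TBX4 in 8 of 8 libraries, PITX1 above TBX15 in 8 of 8 and TBX18 above TWIST1 in 8 of 8. TBX4 lay above TWIST2 in 7 of 8 libraries, and TWIST2 above TBX5 in 7 of 8. TBX5 and TBX3 (6 of 8), TBX3 and PITX1 (4 of 8) and TBX15 and TBX18 (6 of 8) changed places between libraries, so their order was not fixed beyond the spread.

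**Figure D1:**
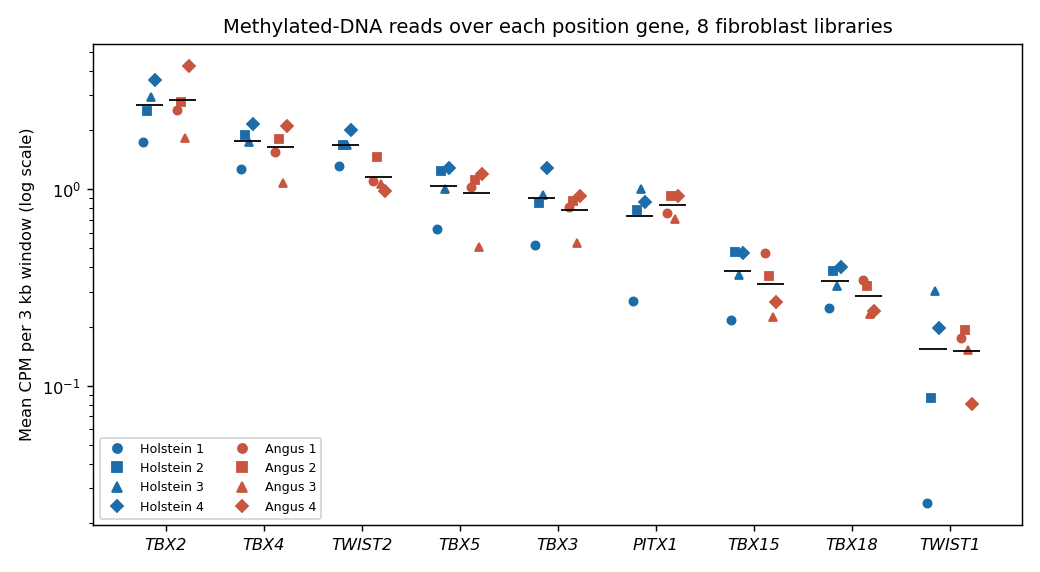
Mean CPM per 3 kb window (log scale) of each position gene in the 8 libraries, with Holstein in blue, Angus in red, a symbol for each animal number and a black line for each breed's mean (n = 4). The genes run from TBX2 (mean 2.77 CPM) to TWIST1 (0.151 CPM), and the breeds overlap in every gene.

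TBX2, a repressor active in limb and heart development, took 4 windows on the minus strand of chromosome 19 (chr19:11942275-11954274, UMD v3.1), all touching coding exons. The reads were unevenly placed. The first window (exon 1) held a mean of 0.324 CPM and window 3 (exon 6) held 5.63 CPM, the highest of all 106 windows and 17.4 times the first. In window 3 the Holstein libraries held 3.24, 5.50, 6.24 and 7.26 CPM and the Angus libraries 4.43, 5.32, 3.63 and 9.42 CPM. Holstein 1 and Angus 3 were the lowest of their breeds there, and the breeds overlapped.

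TBX4, the hind limb gene, took 10 windows of the same strand (chr19:11864275-11894274). Its pattern differed from that of TBX2 at the start of the gene: the first window (exon 1) already held 1.75 CPM, above the mean of the other 9 windows in 5 of 8 libraries. A higher level followed at the end, with 4.27 CPM in window 9 (exon 7) and 3.11 CPM in window 10 (exon 8). Window 9 held 3.24, 4.63, 4.88 and 5.04 CPM in Holstein and 3.25, 4.97, 3.29 and 4.87 CPM in Angus, so the breeds spanned the same range. The 16 windows between TBX4 and TBX2 averaged 0.771 CPM, below both genes.

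TBX3, a repressor that acts in limb and mammary development, took 6 windows on the plus strand (chr17:62349994-62367993). Reads gathered in window 4 (exon 6) at 2.36 CPM, while the first window held 0.238 CPM. TBX5, which marks the forelimb and the heart, took 18 windows (chr17:62529994-62583993). It had a high stretch near its start, with 2.40 CPM in window 3 (exon 3), and another near its end, with 2.21 CPM in window 17 (exon 8). The 54 windows between TBX3 and TBX5 averaged 0.567 CPM.

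PITX1, which acts upstream of TBX4 in the hind limb, was flat: its 3 windows (chr7:48062046-48071045, minus strand) lay between 0.720 and 0.856 CPM. Holstein 1 held 0.270 CPM over the gene and the other 7 libraries 0.705 to 0.996 CPM, so a single library was low there.

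The TWIST genes encode basic helix-loop-helix repressors of mesenchyme, and their levels lay far apart. TWIST1 was the lowest of the 9 genes (9.13th percentile of named genes), and TWIST2 stood at the 79.4th percentile, below TBX2 and TBX4. TWIST1 took 2 windows (chr4:27851405-27857404, minus strand) with 0.253 and 0.0494 CPM, and the second of these held 0 to 4 reads per library. Over the gene the Holstein libraries held 0.0253, 0.0866, 0.303 and 0.197 CPM and the Angus libraries 0.175, 0.192, 0.151 and 0.0803 CPM. At this depth no difference between breeds could be seen in TWIST1.

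TWIST2, mutations of which cause skin and eyelid malformations in people, took 21 windows (chr3:118628610-118691609, plus strand), of which only the first touches a coding exon. That coding window held 0.329 CPM and the mean of the other 20 was 1.46 CPM, higher in 8 of 8 libraries. Levels within the gene ran from 0.0651 CPM in window 2, with 0 to 4 reads per library, to 3.87 CPM in window 10. In TBX3, TBX4 and TBX5 the order was the other way round, with coding windows above non-coding ones in 8 of 8 libraries. Of 13073 named genes with both kinds of window, 68.1% had the higher mean in coding windows.

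The skin genes TBX15 and TBX18 were low almost throughout. TBX15, which shapes dermal pigment pattern and skeleton, took 32 windows (chr3:24233910-24329909, plus strand), 26 of them under 0.5 CPM and none above 0.782 CPM. TBX18, known from the epicardium and mesenchyme, took 10 windows (chr9:65578551-65608550, plus strand), 8 of them under 0.5 CPM. Its second window (exon 3) held between 0 and 2 reads in every library, within the 3-read floor, and its last (exon 8) held 1.02 CPM. Of the 106 windows 3 held at most 3 reads in all 8 libraries, 2 of them in TBX18 and 1 in TBX15.

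**Figure D2:**
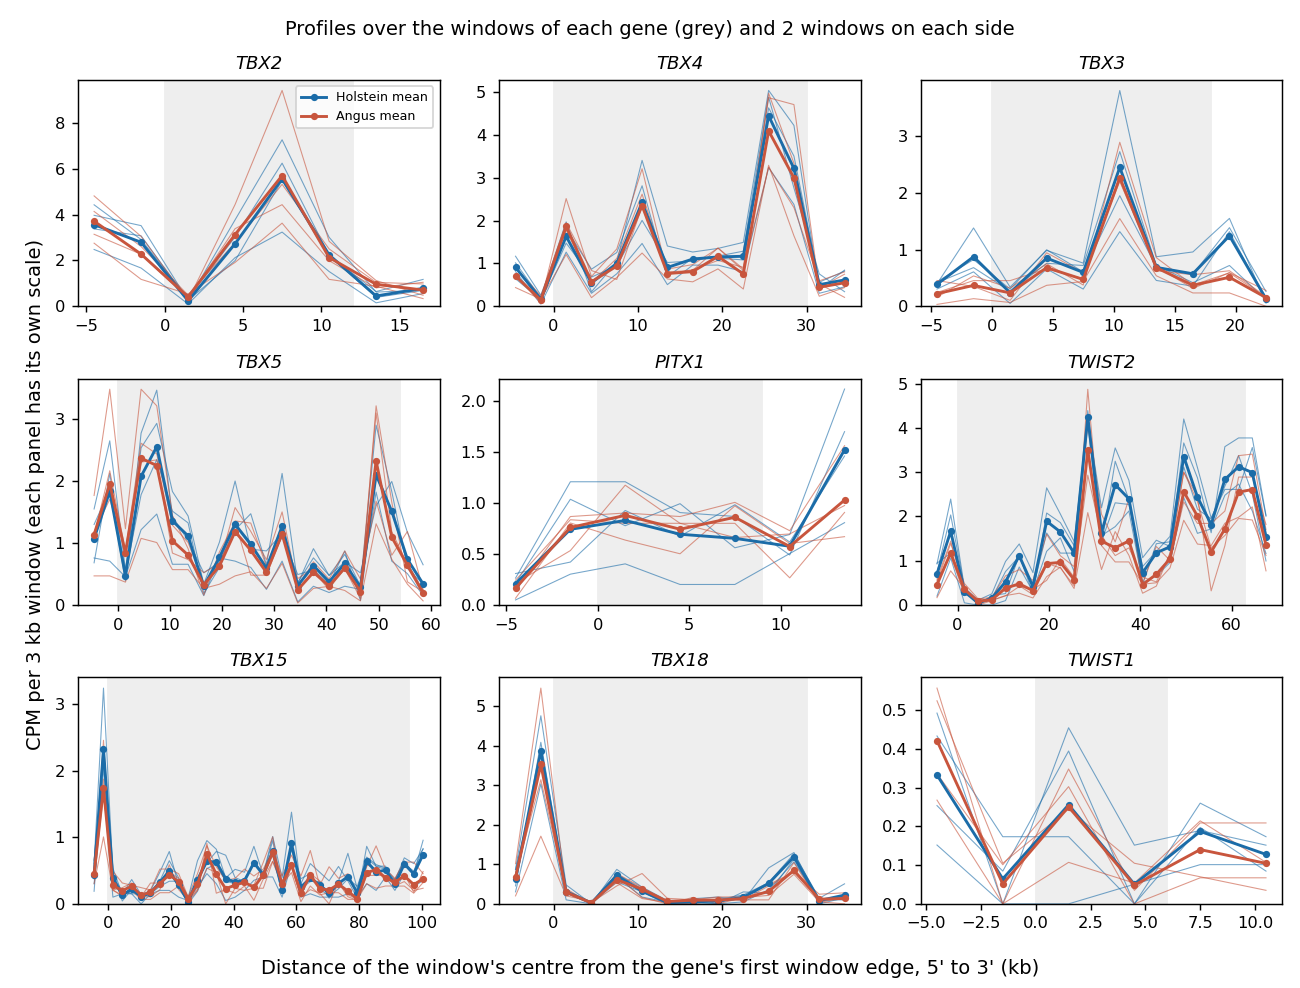
CPM per 3 kb window along each gene (grey) and its 2 flanking windows on each side, against distance in kb from the outer edge of the first window, read 5′ to 3′. Thin lines are single libraries and thick lines the means of 4 Holstein (blue) and 4 Angus (red) libraries, and each panel has its own vertical scale. TBX2 peaks in window 3 (5.63 CPM) after a low first window (0.324 CPM), and TBX15 and TBX18 peak just upstream of their first windows.

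Because the tables give no start sites, the promoter was taken as the window at the 5′ end of each gene, its first window. The first window lay below the mean of the gene's other windows in 6 of the 9 genes, against 63.3% of named genes with at least 2 windows, so this share is close to that of genes at large. The size of the step was large in some of them. The other windows held 11.04 times the first in TBX2 (97.9th percentile of named genes, whose median was 1.41), 4.45 times in TWIST2 (88.1th percentile) and 4.05 times in TBX3 (86.2nd percentile), each in 8 of 8 libraries. In TBX15 (1.09 times, lower in 5 of 8 libraries), TBX18 (1.05 times, 4 of 8) and TBX4 (0.967 times, 3 of 8) the first window did not stand apart. In PITX1 (0.864 times, 2 of 8) and TWIST1 (0.195 times, 1 of 8) the first window was the higher. With the first 2 windows in place of the first the count was 6 of 8 genes (TWIST1 has no further window), but TBX5 turned to 0.657 times and TBX4 to 1.59 times.

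The window just upstream of the first was higher than the first in 6 of 9 genes, against 42.8% of 26047 named genes. TBX18 had the steepest drop, from 3.70 CPM upstream (chr9:65575551-65578550) to 0.299 CPM in its first window, a 12.4-fold step. Upstream of TBX18 the Holstein libraries held 3.03, 3.59, 4.09 and 4.76 CPM and the Angus libraries 3.14, 3.79, 1.71 and 5.46 CPM, and every library lay above its own first window. The step was 7.81-fold at TBX2, 6.17-fold at TBX15, 4.32-fold at TWIST2 and 2.89-fold at TBX5, each in 8 of 8 libraries, and 2.61-fold at TBX3 in 7 of 8. The window upstream of TBX5 carried the name of another gene, LOC100297608. TBX15 and TBX18 thus had their highest level outside the gene: 2.04 CPM just upstream of TBX15 exceeded each of its 32 windows. At TBX4 the upstream window held 0.156 CPM, 0.0892 times the first, and at TWIST1 it held 0.0579 CPM, with 0 reads in 4 of 8 libraries.

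**Figure D3:**
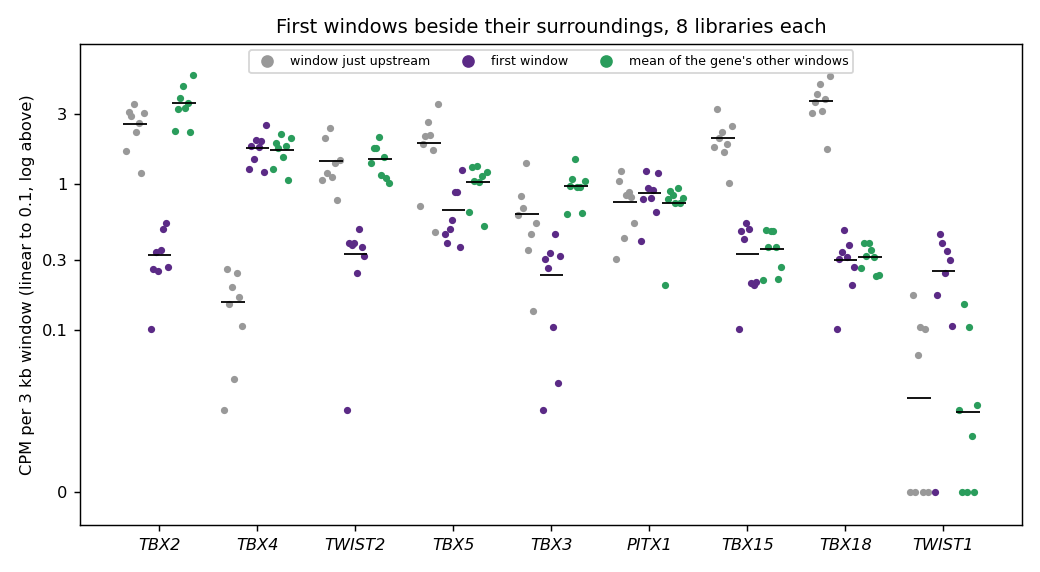
CPM of the window just upstream (grey), of the first window (purple) and of the mean of the gene's other windows (green) for each gene, with a point for each of the 8 libraries and a black line for their mean. The vertical axis is linear to 0.1 CPM and logarithmic above. In TBX2, TWIST2, TBX5, TBX3, TBX15 and TBX18 the mean of the first window lies below both of the others. In TBX15 and TBX18 it lies only slightly below the gene's other windows. In TBX4 it lies above the upstream window (1.75 against 0.156 CPM).

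The skin genes held by the tables (TBX15, TBX18 and TWIST1) were set beside the limb and heart genes (TBX2, TBX3, TBX4, TBX5, PITX1 and TWIST2, the last also a dermal gene). The mean of the gene levels lay between 0.163 and 0.358 CPM per library for the skin genes and between 0.948 and 1.86 CPM for the others, a ratio of 5.17 between the means. Each skin gene lay below each limb and heart gene in 8 of 8 libraries. In first windows this held in 1 of 8 libraries, since TBX2, TBX3 and TWIST2 were low there too (0.238 to 0.329 CPM, against 0.253 to 0.330 CPM in the skin genes). The ratio fell to 2.54 with TWIST2 placed among the skin genes. The separation of gene levels was then lost, since TWIST2 (1.41 CPM) lay above TBX3 (0.841 CPM) and PITX1 (0.778 CPM). With 9 genes the ratio describes these genes only. CpG density was not measured here, and its part in these levels was not tested.

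Breeds were compared to ask whether methylation differed between dairy and beef animals. A difference was called at FDR < 0.1 and FC ≥ 2 in edgeR's likelihood-ratio test, adjusted over all windows or genes tested. Of 115360 windows with at least 1 CPM in at least 4 libraries 0.231% were called, and 0 of the 32 position gene windows among them were. Of the 267 called windows only 110 lay on placed chromosomes, which held 113569 of the windows tested and all of the position gene windows. At an unadjusted p under 0.05 there were 6 of the 32, against 4.94% of all windows past the filter, all in TWIST2 and all higher in Holstein. The quasi-likelihood test and DESeq2 also called 0, with 5 such windows each. Without Holstein 1 and Angus 3, a choice made after seeing the data, 2 windows of TWIST2 were called, window 7 (log2 fold change 1.05, FDR 0.0186) and window 12 (1.04, FDR 7.73e-05). Window 7 was also called without Angus 2 (1.12, FDR 0.0217).

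Window 12 of TWIST2 (chr3:118661610-118664609, no coding exon) was the member window with the lowest FDR. The Holstein libraries held 1.77, 3.25, 2.31 and 3.55 CPM (35, 75, 61 and 126 reads). The Angus libraries held 1.12, 1.43, 0.974 and 1.66 CPM (32, 41, 29 and 31 reads). Every Holstein library lay above every Angus library, with Holstein 1 closest to Angus 4. The means were 2.72 ± 0.823 CPM in Holstein and 1.29 ± 0.308 CPM in Angus (SD, n = 4 each). The log2 fold change was 0.96 (SE 0.18, FDR 0.000265), a 1.94-fold difference, so the window passed the FDR and missed the fold change minimum. The FDR was 0.0189 by the quasi-likelihood test and 0.0037 by DESeq2, and 0.273 when all windows with reads were fitted together. The window was called when library totals alone were used (log2 fold change 1.10), and without Holstein 1 or without Holstein 3 (1.00 and 1.05).

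The difference ran along much of TWIST2. Of its 21 windows 19 had a log2 fold change above 0, against 49.99% of all windows with reads, and 12 of the 13 that passed the filter did. Neighbouring windows share animals and libraries, so they do not count as separate evidence. With library totals alone the median of all windows with reads moved to 0.16, so small positive values depend on the scaling. The median over the 21 windows was 0.36, against 0.05 over the 106 windows of all 9 genes. The 2 windows with a negative value were the first (-0.36) and the second (-0.70), at the coding end. Holstein libraries lay above all Angus libraries in windows 5, 8, 12 and 20. In window 5, for example, Holstein held 0.860, 1.13, 1.10 and 1.38 CPM and Angus 0.419, 0.800, 0.437 and 0.268 CPM, and the log2 fold change was 1.02 (SE 0.28, FDR 0.206). That window was not called with all 8 libraries, and was called without Angus 2 (FDR 0.0864).

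**Figure D4:**
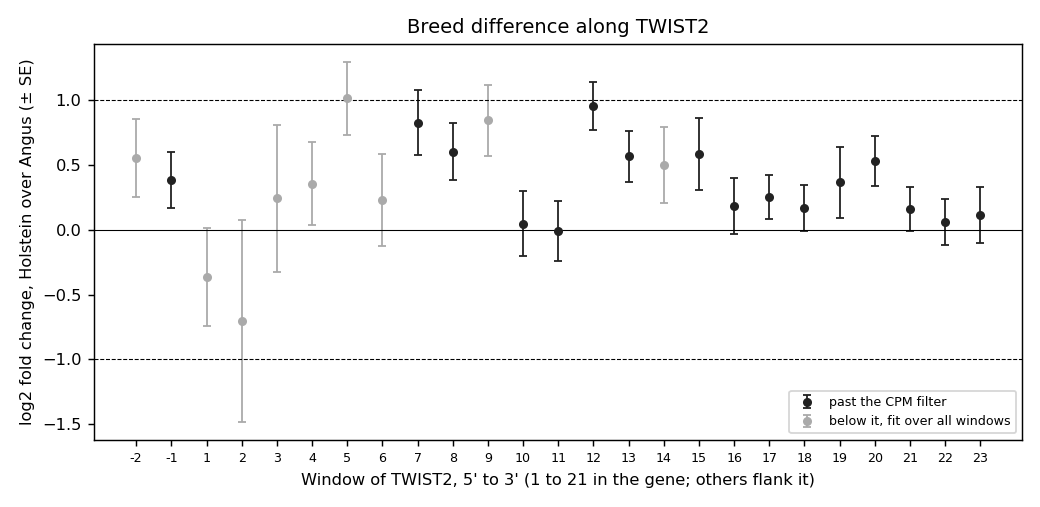
Log2 fold change of Holstein over Angus (points, with SE bars) in each window of TWIST2 and its flanks, 5′ to 3′; black points passed the CPM filter and grey points come from the fit over all windows with reads. Dashed lines mark a 2-fold difference. The first 2 windows lie below 0 (-0.36 and -0.70) and window 12 lies highest among those past the filter (0.96).

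Summed over a gene's windows, TWIST2 held 1.32, 1.68, 1.68 and 2.00 CPM per window in Holstein and 1.10, 1.46, 1.06 and 0.978 CPM in Angus. In CPM Angus 2 lay above Holstein 1, so the breeds overlapped. After TMM scaling, which the fold change uses, they overlapped through another library. Angus 3 (1.56 CPM per window) then lay above Holstein 2 and Holstein 3 (1.54 in the latter). Holstein 1 stood at 1.61, and Angus 2 (1.33) lay below every Holstein library. The log2 fold change was 0.36 (SE 0.17, unadjusted p 0.0273, FDR 1.00). Of 19408 genes tested 0.0721% were called, and 0 of the 8 position genes tested were. TWIST2 was the single one with an unadjusted p under 0.05, as it was by the quasi-likelihood test and by DESeq2, which also called 0. Its log2 fold change ranged from 0.25 without Angus 4 to 0.51 without Angus 3. Its likelihood-ratio p was 0.0997 without Holstein 1, 0.0540 without Holstein 3 and 0.0817 without Holstein 4. It was 0.0699 without Angus 1 and 0.126 without Angus 4, and stayed under 0.05 without Holstein 2, Angus 2 or Angus 3. By the same test PITX1 was under 0.05 without Holstein 3 (0.0194) or Angus 1 (0.0357). TWIST1 did not pass the filter.

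The other genes showed smaller values or wide errors. PITX1 had a log2 fold change of -0.37 (SE 0.23) and TBX2 -0.22 (SE 0.18). PITX1 was at -0.23 without Holstein 1, -0.55 without Holstein 3 and -0.12 without both Holstein 1 and Angus 3, and TBX2 at -0.14 without Holstein 2 and -0.022 without Angus 4. TBX3, TBX4, TBX5, TBX15 and TBX18 lay between -0.03 and 0.08, with SE from 0.13 to 0.16. Both breeds overlapped in all 9 genes. Per window TBX2 averaged 2.69 ± 0.772 CPM in Holstein and 2.84 ± 1.02 CPM in Angus, and TBX4 1.76 ± 0.374 and 1.63 ± 0.432 CPM (SD, n = 4 each).

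Most position gene windows (74 of 106) fell below the CPM filter, so all windows with reads were also fitted together. In that fit 0.102% of 887821 windows were called (572 of the 885069 on placed chromosomes). Of the 106 position gene windows 0 were called, and 13 had an unadjusted p under 0.05, 8 of them in TWIST2. Over all windows with reads 4.55% reached this level. The quasi-likelihood test also called 0, with 12 at that level. Of the other 5, window 16 of TBX15 (log2 fold change 1.07, SE 0.35, FDR 0.594), window 26 of TBX15 (0.99, SE 0.40, FDR 0.989) and window 8 of TBX4 (0.53, SE 0.27, FDR 1.00) had the higher mean in Holstein. The first windows of TBX5 and TBX2 had it in Angus. In that of TBX5 (chr17:62529994-62532993) the breeds nearly separated. The Holstein libraries held 0.455, 0.390, 0.492 and 0.563 CPM and the Angus libraries 0.873, 0.869, 0.369 and 1.23 CPM. All Angus libraries but Angus 3 lay above all Holstein libraries. The log2 fold change was -0.89 (SE 0.29, FDR 0.618). The first window of TBX2 had a log2 fold change of -0.97 (SE 0.38, FDR 0.963) on 2 to 16 reads per library, and -0.62 without Angus 3 or -0.55 without both Holstein 1 and Angus 3.

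In CPM, Holstein libraries lay above all Angus libraries in 5 of the 106 windows, the 4 of TWIST2 and the last window of TBX18, and Angus libraries above all Holstein libraries in 0. Over all windows with reads the shares were 1.01% and 0.243%. The last window of TBX18 held 1.06, 1.30, 1.14 and 1.27 CPM in Holstein and 0.803, 0.800, 1.04 and 0.749 CPM in Angus. With TMM its log2 fold change was 0.29 (SE 0.25), so this separation did not pass the test.

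Of the 36 flanking windows 3 were called in the fit over all windows with reads, and 0 of the 10 that passed the CPM filter were in the filtered fit (0 also by the quasi-likelihood test and by DESeq2, and 0 at an unadjusted p under 0.05 by each). In the fit over all windows with reads 4 of the 36 had an unadjusted p under 0.05. Over all windows in that fit 0.102% were called (572 of the 885069 on placed chromosomes) and 4.55% had such a p. Both windows next to TBX3 were higher in Holstein. Upstream (chr17:62346994-62349993) the Holstein libraries held 0.607, 0.822, 0.681 and 1.38 CPM and the Angus libraries 0.349, 0.452, 0.134 and 0.535 CPM. Downstream (chr17:62367994-62370993) they held 1.31, 1.39, 0.719 and 1.55 CPM and 0.593, 0.626, 0.235 and 0.589 CPM. The breeds separated in both windows, with Angus 3 lowest in each. The log2 fold changes were 1.20 (SE 0.31, FDR 0.0909) upstream and 1.16 (SE 0.28, FDR 0.0435) downstream, on 4 to 55 reads per library.

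The other called window, next to the 3′ end of TBX2 and named LOC785013 (chr19:11939275-11942274), was higher in Angus. Holstein held 0.152, 0.390, 0.643 and 0.619 CPM and Angus 0.803, 1.04, 0.873 and 1.12 CPM. Every Angus library lay above every Holstein library, and the log2 fold change was -1.19 (SE 0.29, FDR 0.0441). By the quasi-likelihood test the TBX2 window (FDR 0.0831) and the downstream TBX3 window (FDR 0.0833) were called and the upstream TBX3 window (FDR 0.165) was not. None of the 3 was called with library totals alone, without both Holstein 1 and Angus 3, or without Holstein 1, Holstein 4, Angus 2 or Angus 3 singly. With single libraries left out the log2 fold changes ranged from 0.91 to 1.40 upstream of TBX3, from 0.99 to 1.36 downstream of it and from -1.41 to -1.03 beside TBX2. With totals alone they were 1.31, 1.29 and -1.02, and without both libraries 1.03, 0.87 and -0.95.

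**Figure D5:**
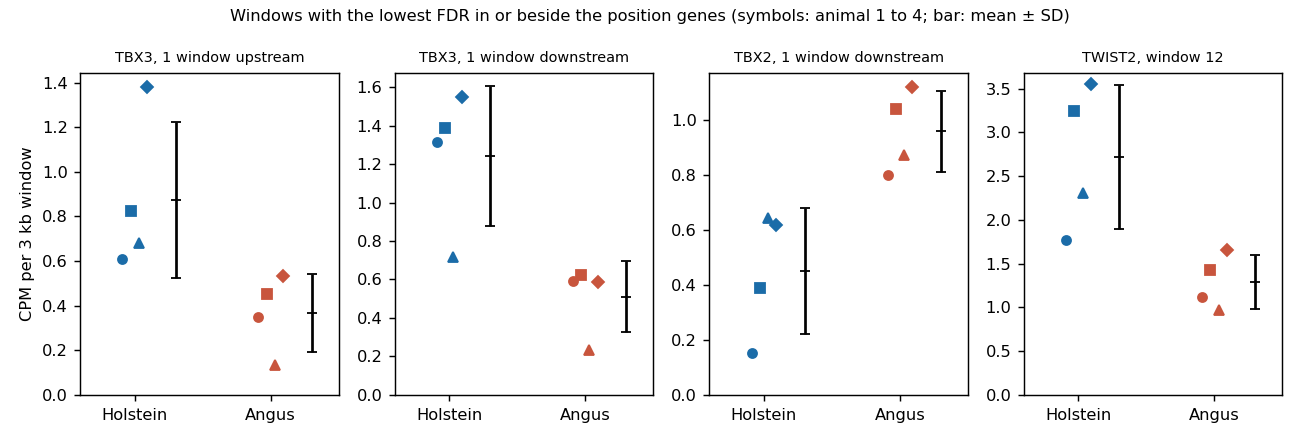
CPM of the 3 called flanking windows and of TWIST2 window 12 in each library (symbols mark the animal number, 1 to 4, in Holstein in blue and in Angus in red), with the mean and SD of each breed (n = 4) beside the points. The breeds do not overlap in any of the 4 windows; Holstein is higher in 3 and Angus in the window next to TBX2.

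Other genes of the same families were looked at from fixed lists. Of 12 symbols listed for other T-box genes, with T and TBXT both naming brachyury, 10 were held. Their median first-window level was 0.716 CPM, against 0.395 CPM over named genes. The first window of T, the gene of the notochord factor brachyury, held 30.7 CPM (99.9th percentile), with 16.8 to 39.9 CPM over the libraries, and TBX20, a heart gene, was the lowest at 0.0945 CPM. By the likelihood-ratio test, the quasi-likelihood test and DESeq2 alike, 0 of the 10 genes were called and 2 had an unadjusted p under 0.05, against 1.97% of all genes by the likelihood-ratio test. Window 4 of TBR1, a brain factor (chr2:35061734-35064733, exon 6), held 1.32 ± 0.485 CPM in Holstein and 2.45 ± 1.21 CPM in Angus (SD, n = 4 each). It was called in the fit over all windows with reads (log2 fold change -1.02, FDR 0.0797) and not in the filtered fit, where it passed the FDR (0.00561) and missed the fold change minimum (-0.95). By the quasi-likelihood test over all windows with reads, 0 of the list's 110 windows were called, with 4 at an unadjusted p under 0.05.

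Among 16 of 17 limb bud genes the median first window was 0.353 CPM, and MEIS2, a homeobox factor of the proximal limb, was the lowest at 0.0753 CPM. Of the 13 genes tested 0 were called and 0 had an unadjusted p under 0.05, by the likelihood-ratio test, the quasi-likelihood test and DESeq2. Of their 339 windows with reads 0 were called, with 18 at an unadjusted p under 0.05, a share near that of all windows with reads given above (0 and 12 by the quasi-likelihood test).

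Among 12 dermal and mesenchymal regulators the median first window was 0.279 CPM. Of their 43 windows past the filter 1 was called, and of their 440 windows with reads 3 were, with 24 at an unadjusted p under 0.05. Over all windows past the filter 0.231% were called (110 of the 113569 on placed chromosomes). Over all windows with reads 0.102% were called (572 of the 885069 on placed chromosomes) and 4.55% had an unadjusted p under 0.05. The first window of ZEB1, a repressor of epithelial genes (chr13:34259397-34262396, exon 1), held 1, 5, 3 and 12 reads in Holstein and 33, 18, 15 and 18 reads in Angus. Every Angus library was higher. This window fell below the CPM filter, and in the fit over all windows with reads the log2 fold change was -2.16 (SE 0.35, FDR 3.33e-06). Window 3 of EBF2, a mesenchymal precursor factor (chr8:74320787-74323786, exon 5), held 1.69 ± 0.504 CPM in Holstein and 0.629 ± 0.253 CPM in Angus (SD, n = 4 each), with a log2 fold change of 1.25 and an FDR of 0.00150. The quasi-likelihood test also called it (FDR 0.0487), and DESeq2 gave it no adjusted p. Window 2 of EBF2 (chr8:74323787-74326786, exon 2) was called in the fit over all windows with reads, with a log2 fold change of 1.12 and an FDR of 0.0756. By the quasi-likelihood test it was not (FDR 0.138), nor without Holstein 1, Holstein 2, Holstein 3, Angus 1 or Angus 4 (log2 fold changes from 0.78 to 1.12). Summed over their windows, 0 of the 10 genes tested were called and 0 had an unadjusted p under 0.05, by the likelihood-ratio test, the quasi-likelihood test and DESeq2.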

How the data were processed

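The 8 MIRA-Seq libraries came from dermal fibroblasts without treatment (4 Holstein, 4 Angus, 1 animal each), with breed and animal number taken from the labels. The authors used NextGENe 2.3.4 to drop low-quality reads and to map those left to the UMD v3.1 build, keeping reads aligned over more than 85% of their length, and deposited raw read counts per 3 kb window with the gene name and coding exon. The deposited files also hold the coverage of each window, a signal that was not scaled for depth; it was used only to look for stacked reads, and its highest value was 43 over the position gene windows and 25 over their flanks. How duplicate and multiply matching reads were handled is not given in the sources used here. No input library was used, so methylation was not separated from CpG density, copy number or pull-down efficiency.

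Library sizes were the totals over all windows, 18691111 to 35525554 reads, and gene values were sums over the windows carrying the gene's name. Counts were tested in R 4.3.3 with edgeR 4.0.16, using the likelihood-ratio test of breed in a generalized linear model, as the study's methods state, and TMM scaling, which they do not name. Features needed 1 CPM or more in 4 or more libraries, and p-values were adjusted over all of them by the Benjamini-Hochberg method. A second window fit took all windows with reads. The SE is the log2 fold change divided by the normal deviate of its p. The procedure was tested on simulated counts with known changes. Levels were computed in Python 3.11.15 and are given with no test. Alternatives were edgeR's quasi-likelihood test, DESeq2 1.42.0, other scalings and filters, a block for the animal number and fits without single libraries. Animal numbers did not pair the samples: deviations of same-numbered libraries correlated at -0.21 to 0.11 (mean -0.02). None of the 12 pairs of libraries within a breed agreed within sampling noise (chi-square per window at least 8.60).

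The position genes and lists were chosen with earlier results of these data known. The windows described were, for each gene, its first, its highest, those with the lowest adjusted p, those called, and its flanks, and, of other lists, genes with a called window or else the highest and lowest first window. No sequences are given, and a result that this rule would name is not reported here.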

Additional observations from a re-analysis of the deposited data

Results flagged for a closer look

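Within a breed, 74 groups of 4 libraries were tested for a library far from the other 3 by Dixon's test, and 4 stood out. Chance gives about 5% of groups, so this count is near the chance share and the 4 cases are listed as observations only. In the window downstream of TBX3, Angus 3 held 0.235 CPM against 0.589 to 0.626 CPM in the other Angus libraries. In window 8 of TBX4, Angus 3 held 0.403 CPM against 0.834 to 0.910 CPM. In the first window of TBX15, Angus 1 held 0.489 CPM against 0.201 to 0.214 CPM. In the first window of TWIST2, Holstein 1 held 0.0506 CPM against 0.378 to 0.394 CPM. Their causes were not tested.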

How the results depend on the processing

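Calls over all windows numbered 267, and 141 by the quasi-likelihood test, 141 by DESeq2, 905 without a CPM filter, 163 with a CPM of at least 1 in all 8 libraries, 153 on placed chromosomes, 531 without both Holstein 1 and Angus 3 and 145 to 564 without single libraries. Calls over all genes numbered 14, and 0 by the quasi-likelihood test (345 at an unadjusted p under 0.05), 6 by DESeq2, 22 with library totals alone, 34 without a filter, 9 with a CPM of at least 1 in all 8 libraries and 8 to 21 without single libraries. Position gene windows called numbered 0, and 1 with library totals alone, 2 without both Holstein 1 and Angus 3, and 0 to 1 without single libraries; below the filter they numbered 0 to 1. Position genes called numbered 0 under every alternative. With the replicate block 346 windows, 17 genes, 0 position gene windows and 0 position genes were called; the animal numbers did not pair the samples. The ratio of limb and heart to skin genes was 2.54 with TWIST2 among the skin genes. Library totals alone moved the median log2 fold change by 0.14 past the filter.

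Small log2 fold changes turned sign. With library totals alone they were 0.11 for the TBX4 and TBX5 genes, 0.10 for the first window of TBX3, 0.13 for TBX4 window 9, 0.051 for TBX15 window 18, 0.12 for the first window of TBX18 and 0.068 for the first window of TWIST1. TBX3 window 4 was -0.033 without a CPM filter and -0.056 with the replicate block, and TBX4 window 9 was 0.017 with a CPM of at least 1 in all 8 libraries. Without both Holstein 1 and Angus 3, TBX4 window 9 was 0.073, the first window of TBX18 0.089 and the first window of TWIST1 0.36. Without single libraries the genes ranged from -0.11 to 0.12 (TBX3), -0.11 to 0.059 (TBX4), -0.12 to 0.059 (TBX5), -0.070 to 0.19 (TBX15) and -0.014 to 0.14 (TBX18). Windows ranged from -0.21 to 0.079 (TBX2 window 3), -0.42 to 0.54 (TBX3 window 1), -0.21 to 0.13 (TBX3 window 4), -0.10 to 0.052 (TBX4 window 9), -0.044 to 0.19 (TBX5 window 3), -0.29 to 0.097 (TBX18 window 1), -0.46 to 0.16 (TWIST1 window 1) and -0.19 to 0.46 (TWIST2 window 10). The cause was not tested. Depth limits windows near 3 reads, where breed differences were not detectable.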
